A study of Mus musculus with 14 samples.

Results

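The gene set described here holds the enzymes of glycolysis, the glucose and lactate transporters, the kinases that set the flow of pyruvate and fructose-2,6-bisphosphate, and the enzymes that build and break down glycogen. Its 41 members were chosen by gene symbol, with earlier results of these data known. All 41 were found in a table of 24016 transcripts. A transcript counted as expressed when its FPKM values averaged 1 or more across the 8 RNA libraries, which 14312 transcripts and 40 of the members reached. The exception was Pygl, the liver form of glycogen phosphorylase, which was listed at 0 in the 4 siCtrl libraries and on days 1 and 2 in the siKlf5 libraries, with 6 reads on day 0 and 2 reads on day 3 there. The RNA was that of C2C12, an established line of mouse myoblasts that form myotubes once growth medium is replaced by low-serum differentiation medium (DM). Cells were transfected with control siRNA (siCtrl) or with a pool of Klf5 siRNAs (siKlf5) while still in growth medium, and poly(A) RNA was sequenced on days 0, 1, 2 and 3 of DM. 1 library was made per siRNA and day, so no day has a replicate, and the 4 days are time points of 1 course in 1 cell line.

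Glycolysis splits glucose into pyruvate, with a small yield of ATP, and lactate dehydrogenase turns pyruvate into lactate, which leaves the cell through monocarboxylate transporters. Pyruvate dehydrogenase kinases keep pyruvate out of the mitochondria, and glycogen phosphorylase frees glucose units from stored glycogen. Several steps have a form that is typical of skeletal muscle (Pfkm, Pgam2, Eno3, Pygm) beside forms of wider use (Pfkl, Pfkp, Pgam1, Eno1, Pygb), and many genes of the pathway are known targets of the hypoxia-inducible factors.

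Between 7850507 and 20301483 reads lay behind the values of a library, recovered from the whole-number steps of the low values. The deepest library, siCtrl on day 2, thus stands apart, with 20301483 reads beside 11808659 in siKlf5 on that day. Klf5, the targeted gene, was at 15.7%, 41.9%, 31.3% and 22.7% of its siCtrl value in siKlf5 cells on days 0, 1, 2 and 3, and its fitted difference from siCtrl, with day as a factor, was -1.94 on the log2 scale (SE 0.20, limma adjusted p = 0.0244). All 5 skeletal muscle markers (Myod1, Myog, Des, Myh3, Chrna1) were expressed, and none of the 3 endothelial and 3 adipocyte markers was. Of the other markers, Cd68 lay between 1.91 and 23.5, Cdh1 between 1.65 and 38.1, and Syp, Krt8, Ptprc, Csf1r, Snap25, Rbfox3 and Epcam did not exceed 3.64 in any library. In a pooled culture, a lower value cannot be told apart from fewer cells that carry the transcript.

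Members differed widely in level. On the FPKM scale, which is per exon length, the 9 most abundant members were Gapdh, Pkm, Aldoa, Eno1, Ldha, Pgk1, Tpi1, Pgam1 and Eno3. Gapdh, the triose-phosphate dehydrogenase, read 3434, 4254, 2149 and 2882 in siCtrl cells and 3419, 3445, 2757 and 2883 in siKlf5 cells on days 0, 1, 2 and 3. Pkm, the muscle-type pyruvate kinase gene, read 3236, 3747, 1678 and 2286 in siCtrl cells and 3374, 2890.4, 2062 and 2229 in siKlf5 cells. At the other end, Slc2a3 and Slc2a4, glucose transporters of neurons and of insulin-responsive tissue, and Phkg1, a catalytic subunit of phosphorylase kinase, stayed below 10 in every library. Slc2a1, the transporter of basal glucose uptake, made up between 95.02% and 99.7% of the summed FPKM value of the 3 glucose transporters. Gapdh, Eno1, Pgk1, Pgam1 and Ldha have near-identical processed copies elsewhere in the mouse genome. The paper states default settings for the aligner. How reads that match several places were then counted is not given in the sources used here, so the values of these genes are less certain.

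The course of differentiation was compared first, with day 1, 2 or 3 set against day 0 over both siRNAs. Genes of the muscle forms rose and genes of several wider forms fell. By day 3, 9 of the 40 expressed members were higher and 10 were lower in limma's test across all expressed transcripts (Benjamini-Hochberg adjusted p under 0.05), beside 12.8% of all expressed transcripts higher and 17.6% lower. The higher members were Pfkm, Pgam2, Eno3, Ldhb, Slc2a4, Pdk2, Pygm, Gys1 and Phkb. The lower members were Hk1, Pfkl, Pfkp, Pgam1, Eno1, Pkm, Slc2a1, Slc16a1, Pfkfb4 and Pygb. On day 2 the same 9 members were higher and 11 were lower, beside 11.5% and 11.6% of all expressed transcripts. On day 1, 6 were higher (Pfkm, Pgam2, Eno3, Pdk2, Pygm, Phkb) and 2 were lower (Hk2, Slc16a1), beside 6.82% and 9.93%. Leaving out any 1 of the 8 libraries kept between 7 and 19 of the 19 day 3 calls, and the 7 that held in every case were Pfkm, Pgam2, Pdk2, Pygm, Gys1, Phkb and Slc16a1. The 10 lower members of day 3 became 1 without either library of day 0 or of day 3. The 11 lower members of day 2 became 0 without the deepest library (siCtrl, day 2), 3 without siKlf5 on day 2 or either library of day 3, and 1 without either library of day 0, and the 9 higher ones became 5 without either library of day 2. For day 1, the 6 higher members became 3 without siCtrl and 2 without siKlf5 on day 0, and the 2 lower became 1 without siCtrl on day 1 and 0 without any other library.

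**Figure D1:**
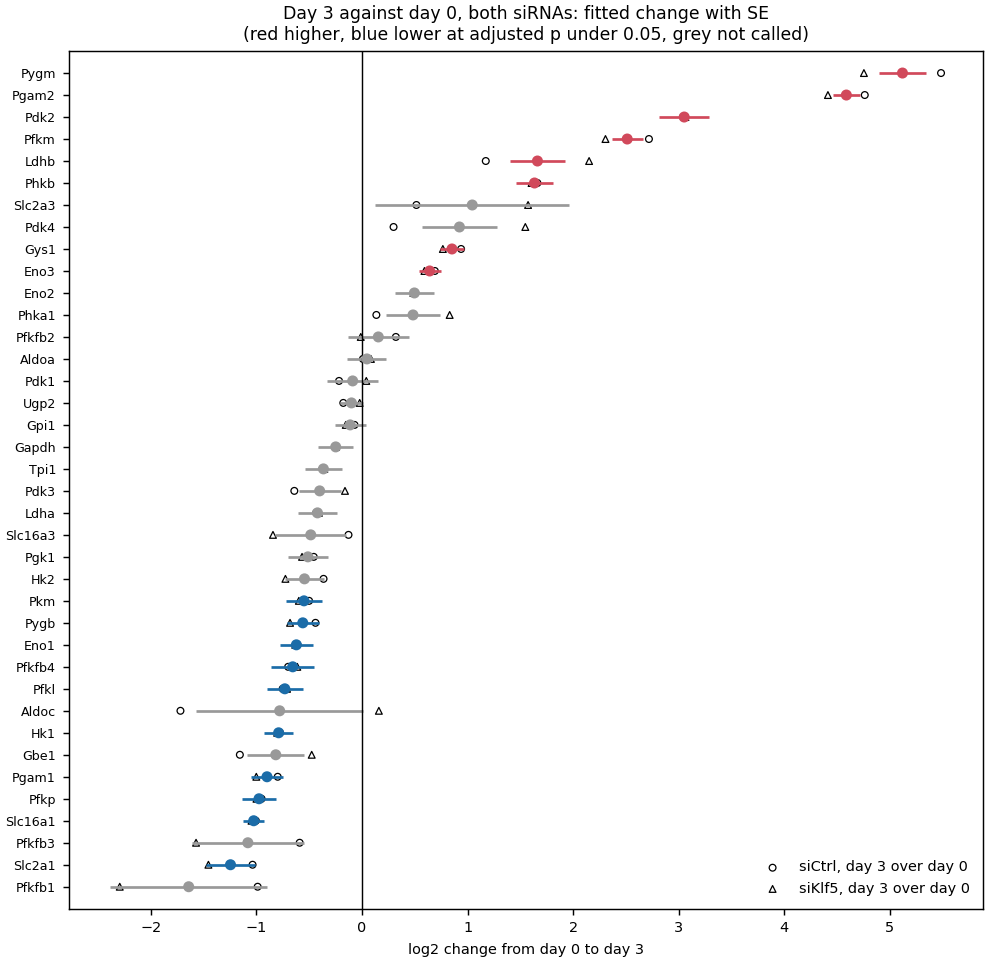
Fitted log2 change from day 0 to day 3 over both siRNAs for 38 expressed members (filled points, bars are SE), with the change within siCtrl (open circles) and within siKlf5 (open triangles). Pygm, Pgam2, Pdk2 and Pfkm lie far to the right and Slc2a1 lies lowest of the members called, and Slc2a4 and Phkg1, with libraries at 0, are left out.

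Among the upper steps, phosphofructokinase, which commits sugar to glycolysis, changed its make-up. Pfkm (NM_001163487, chr15:97938902-97962878, plus strand of mm9), the muscle form, read 196, 455, 838 and 1292 in siCtrl cells and 205, 522, 949 and 1013 in siKlf5 cells on days 0 to 3. It was lowest on day 0 and higher on each later day under both siRNAs, and the fitted day 3 change was 2.51 ± 0.15 (SE; adjusted p = 2.03e-05), or 5.70-fold. Pfkl, the liver form, read 616, 767, 359 and 366 in siCtrl cells and 551, 442, 328 and 337 in siKlf5 cells, with a day 3 change of -0.73 ± 0.17 (SE; adjusted p = 0.0147). Pfkp, the platelet form, read 404, 456, 255 and 209 in siCtrl cells and 410.1, 325, 293 and 205 in siKlf5 cells, with a day 3 change of -0.98 ± 0.16 (SE; adjusted p = 0.00308). Pfkm thus made up 16.1% of the family's summed FPKM value in siCtrl cells on day 0 and 69.2% on day 3, and 17.6% and 65.1% in siKlf5 cells. Within 1 library, where no scaling between libraries enters, the log2 ratio of Pfkm to Pfkl went from -1.65 (95% interval -1.89 to -1.41) to 1.82 (95% interval 1.67 to 1.98) in siCtrl cells. In siKlf5 cells it went from -1.43 (95% interval -1.68 to -1.18) to 1.59 (95% interval 1.41 to 1.77).

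Hexokinase and the main glucose transporter fell. Hk1, the form present in most tissues, read 610.3, 779, 351 and 356 in siCtrl cells and 578, 532, 334 and 331 in siKlf5 cells, a day 3 change of -0.79 ± 0.14 (SE; adjusted p = 0.00407). Hk2, the form of insulin-responsive muscle and many tumours, was lower on days 1 and 2, and its day 3 change of -0.55 ± 0.18 (SE; adjusted p = 0.0537) missed the threshold. Slc2a1 read 949, 985, 369.9 and 462 in siCtrl cells and 743, 486, 400.1 and 271 in siKlf5 cells, a day 3 change of -1.25 ± 0.24 (SE; adjusted p = 0.00575). Its day 2 and day 3 values lay below its day 0 and day 1 values under both siRNAs. The day 3 calls of Hk1 and Slc2a1 were lost without the filter on low values and without the mean-variance trend. They were also lost without any 1 of the day 0 or day 3 libraries. Read counts of Slc2a4 on days 0 to 3 were 0, 1, 56 and 50 in siCtrl cells and 0, 12, 10 and 28 in siKlf5 cells. With 3 reads put in place of the 0 of day 0, its day 3 value of 8.68 in siCtrl cells was 16.0-fold higher. That of 5.57 in siKlf5 cells was 9.32-fold higher. These folds take each read as independent and are not lower bounds. With reads divided by 6, the most that 1 fragment can leave, the interval of the log2 change began at 0.79 in siCtrl cells. In siKlf5 cells the interval began at -0.27 and so included 0. The rise passed the test (adjusted p = 0.0176), though it rests on few reads and was lost without any 1 of the day 0 or day 3 libraries.

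In the lower steps of the pathway, Pgam2 (NM_018870, chr11:5701640-5703799, minus strand of mm9), the muscle phosphoglycerate mutase, read 20.9, 189, 387 and 569 in siCtrl cells and 28.5, 222, 452 and 610.3 in siKlf5 cells. Each later day exceeded day 0 under both siRNAs, and the day 3 change was 4.59 ± 0.13 (SE; adjusted p = 7.4e-07), or 24.0-fold. Pgam1, the brain and wide-use form, read 1998, 2078, 1055 and 1148 in siCtrl cells and 2096, 1543, 1199 and 1047 in siKlf5 cells, a day 3 change of -0.90 ± 0.15 (SE; adjusted p = 0.00378). Pgam2 rose from 1.03% to 33.1% of the summed value of the 2 genes in siCtrl cells and from 1.34% to 36.8% in siKlf5 cells. Enolase shifted less. Eno3, the muscle form, read 1033, 1525, 1317 and 1665 in siCtrl cells and 1114, 1509, 1431 and 1679 in siKlf5 cells, a day 3 change of 0.64 ± 0.10 (SE; adjusted p = 0.00294). Eno1 read 2978, 3289, 1592 and 1949 in siCtrl cells and 3002, 2738, 2028 and 1936 in siKlf5 cells, a day 3 change of -0.62 ± 0.16 (SE; adjusted p = 0.0194). Eno3 held 25.02% of enolase in siCtrl cells on day 0 and 44.1% on day 3. Pkm fell as well, with a day 3 change of -0.55 ± 0.17 (SE; adjusted p = 0.0394), and its isoforms M1 and M2 were not resolved in a table with 1 transcript per gene. The day 3 calls of Eno1 and Pkm were lost under median-ratio and upper-quartile scaling, without the mean-variance trend and without the filter on low values.

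**Figure D2:**
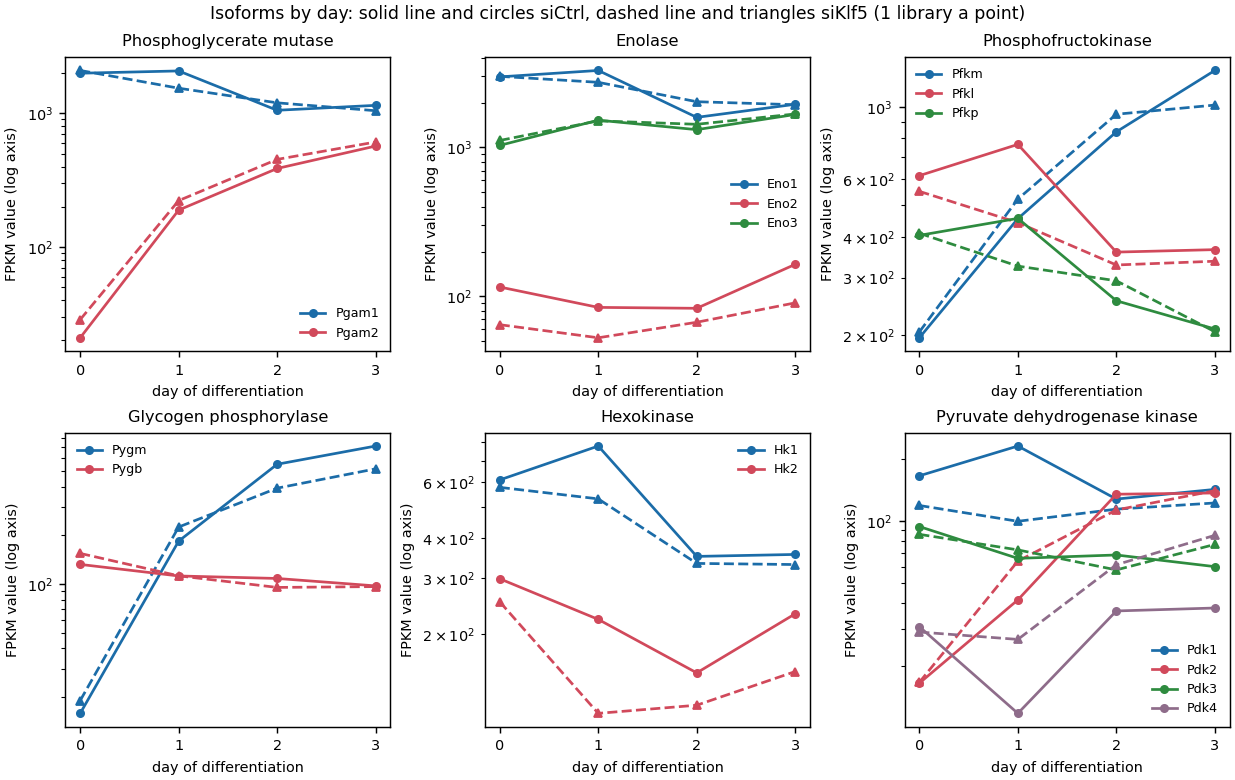
FPKM value (log axis) by day of differentiation for 6 enzyme families, 1 library a point, with siCtrl as circles and solid lines and siKlf5 as triangles and dashed lines. Pgam2, Pfkm and Pygm climb from day 0 under both siRNAs. On all 4 days siKlf5 lies below siCtrl for Hk1, Hk2, Pfkl, Eno2 and Pdk1, and above it for Pgam2.

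Lactate dehydrogenase A, the form that favours lactate, stayed far above the B form: Ldha read 2433, 3229, 1468 and 1799.8 in siCtrl cells and 2443, 2274, 1864 and 1839 in siKlf5 cells and Ldhb 54.4, 67.6, 80.7 and 123 in siCtrl cells and 36.3, 94.9, 92.8 and 161 in siKlf5 cells. Ldhb rose by day 3 (1.66 ± 0.26 (SE; adjusted p = 0.00256)), and its share of both genes was 2.19% on day 0 and 6.38% on day 3 in siCtrl cells. Slc16a1, a monocarboxylate transporter of wide use, read 379.9, 276, 235 and 189 in siCtrl cells and 373, 285, 232 and 181 in siKlf5 cells. Its day 3 change was -1.03 ± 0.10 (SE; adjusted p = 0.000296), and its siKlf5 values lay within 0.07 log2 units of siCtrl on every day. Of the 4 pyruvate dehydrogenase kinases, Pdk2 read 16.5, 41.6, 135 and 136 in siCtrl cells and 16.7, 63.98, 113 and 139.9 in siKlf5 cells. It was lowest on day 0 under both siRNAs, and its day 3 change was 3.05 ± 0.24 (SE; adjusted p = 9.08e-05), or 8.29-fold. Pdk1 and Pdk3 did not pass the test for day 3.

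Of 8 expressed glycogen members, 3 rose by day 3 (Pygm, Gys1, Phkb) and 1 fell (Pygb), beside 12.8% and 17.6% of all expressed transcripts. Pygm (NM_011224, chr19:6384429-6398459, plus strand of mm9), the phosphorylase of muscle, read 15.8, 184, 551 and 714 in siCtrl cells and 19.02, 225, 392 and 516 in siKlf5 cells. The day 3 change was 5.12 ± 0.22 (SE; adjusted p = 4.81e-06), or 34.8-fold, and was 45.1-fold within siCtrl and 27.1-fold within siKlf5. Pygb, the brain form, read 132, 112, 108 and 97.4 in siCtrl cells and 155, 112, 95.3 and 96.4 in siKlf5 cells, a day 3 change of -0.56 ± 0.15 (SE; adjusted p = 0.0247). Pygm held 10.7% of the phosphorylase genes in siCtrl cells on day 0 and 88.00% on day 3. Gys1, the glycogen synthase of muscle, read 190.2, 243, 334 and 365 in siCtrl cells and 165, 222, 304 and 281 in siKlf5 cells, a day 3 change of 0.85 ± 0.11 (SE; adjusted p = 0.00112). Phkb, the beta subunit of phosphorylase kinase, read 47.6, 90.4, 152 and 151 in siCtrl cells and 48.1, 100.1, 113 and 147 in siKlf5 cells, a day 3 change of 1.63 ± 0.18 (SE; adjusted p = 0.000436). Of the 3 synthesis genes, Gys1 alone passed. Phka1, a regulatory subunit, Gbe1, the branching enzyme, and Ugp2, which makes the glucose donor, did not pass (0.48 ± 0.25 (SE; adjusted p = 0.193), -0.82 ± 0.27 (SE; adjusted p = 0.0522) and -0.10 ± 0.11 (SE; adjusted p = 0.526)).

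Promoters of 2 members that rose strongly, Pgam2 and Pygm, are shown because they carry the E-box CAGCTG, a form of the sequence that myogenic factors such as MyoD bind. Each runs from 250 bases before to 50 bases after the RefSeq start on GRCm38.p6, a later build than the mm9 of the table: Pgam2 at chr11:5803747-5804046 on the minus strand and Pygm at chr19:6384158-6384457 on the plus strand. Capitals mark CAGCTG and, where present, ACGTG or its reverse complement CACGT.
Pgam2: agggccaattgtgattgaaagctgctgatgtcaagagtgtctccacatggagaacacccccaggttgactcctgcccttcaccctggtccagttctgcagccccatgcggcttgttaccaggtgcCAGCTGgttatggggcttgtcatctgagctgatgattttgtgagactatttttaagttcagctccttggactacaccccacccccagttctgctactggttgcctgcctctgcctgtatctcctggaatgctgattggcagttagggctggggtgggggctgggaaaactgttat
Pygm: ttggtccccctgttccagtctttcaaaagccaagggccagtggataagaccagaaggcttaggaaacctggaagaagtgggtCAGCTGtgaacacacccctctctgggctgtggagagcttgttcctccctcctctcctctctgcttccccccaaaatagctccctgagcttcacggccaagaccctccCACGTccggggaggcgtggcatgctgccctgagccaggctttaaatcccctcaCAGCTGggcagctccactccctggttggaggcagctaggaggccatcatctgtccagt
The letters CAGCTG, which read the same on both strands, were found once in Pgam2 and at 2 places in Pygm. Of the 41 members, 39 had a promoter entry, and CAGCTG was in 13 of them (33.3%), beside 18.3% of all 27025 genes with an entry. Genes can have several promoters, and the 39 members had 59. Counted by promoter, the shares were closer, at 22.0% of the 59 and 16.3% of all 32851. Among the members with an entry that were higher on day 3 it was in 5 of 8 (Eno3, Gys1, Pgam2, Phkb, Pygm), and among those lower in 1 of 10 (Pkm). These are letter matches, not measured binding.

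Klf5 knockdown was then compared with control on each day. With 1 library per arm there is no test for a day, so each ratio is log2((siKlf5 + 0.1)/(siCtrl + 0.1)) with a 95% exact binomial interval on reads divided by 6, the most that 1 fragment can leave under the authors' limit of 3 reads per position. These intervals cover counting error only. On day 1, 10 of the 40 expressed members were past 1.5-fold lower and 5 past 1.5-fold higher, beside 11.0% and 16.4% of all expressed transcripts. The median ratio was -0.32 over the members and 0.03 over all expressed transcripts, and 18 members (45.0%) had an interval below 0 whereas none had 1 above, beside 5.53% and 7.15% of all expressed transcripts (intervals narrow as reads rise, so these shares also depend on how abundant the genes are). On day 0, 4 were lower and 1 was higher (background 11.1% and 9.22%, median -0.07). On day 2, 5 were lower and 2 higher (background 13.0% and 7.69%, median 0.01). On day 3, 6 were lower and 4 higher (background 12.5% and 10.7%, median -0.04). Where a library had 3 reads or fewer (Slc2a4 on days 0 and 1, Phkg1 on days 1 and 3), leaving the gene out gave medians of -0.08, -0.32 and -0.04 for days 0, 1 and 3. Intervals lay below 0 for 6 members and above 0 for none on day 0 (background 5.14% and 4.42%), for 5 and 11 on day 2 (10.3% and 7.20%), and for 9 and 2 on day 3 (7.16% and 6.50%).

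**Figure D3:**
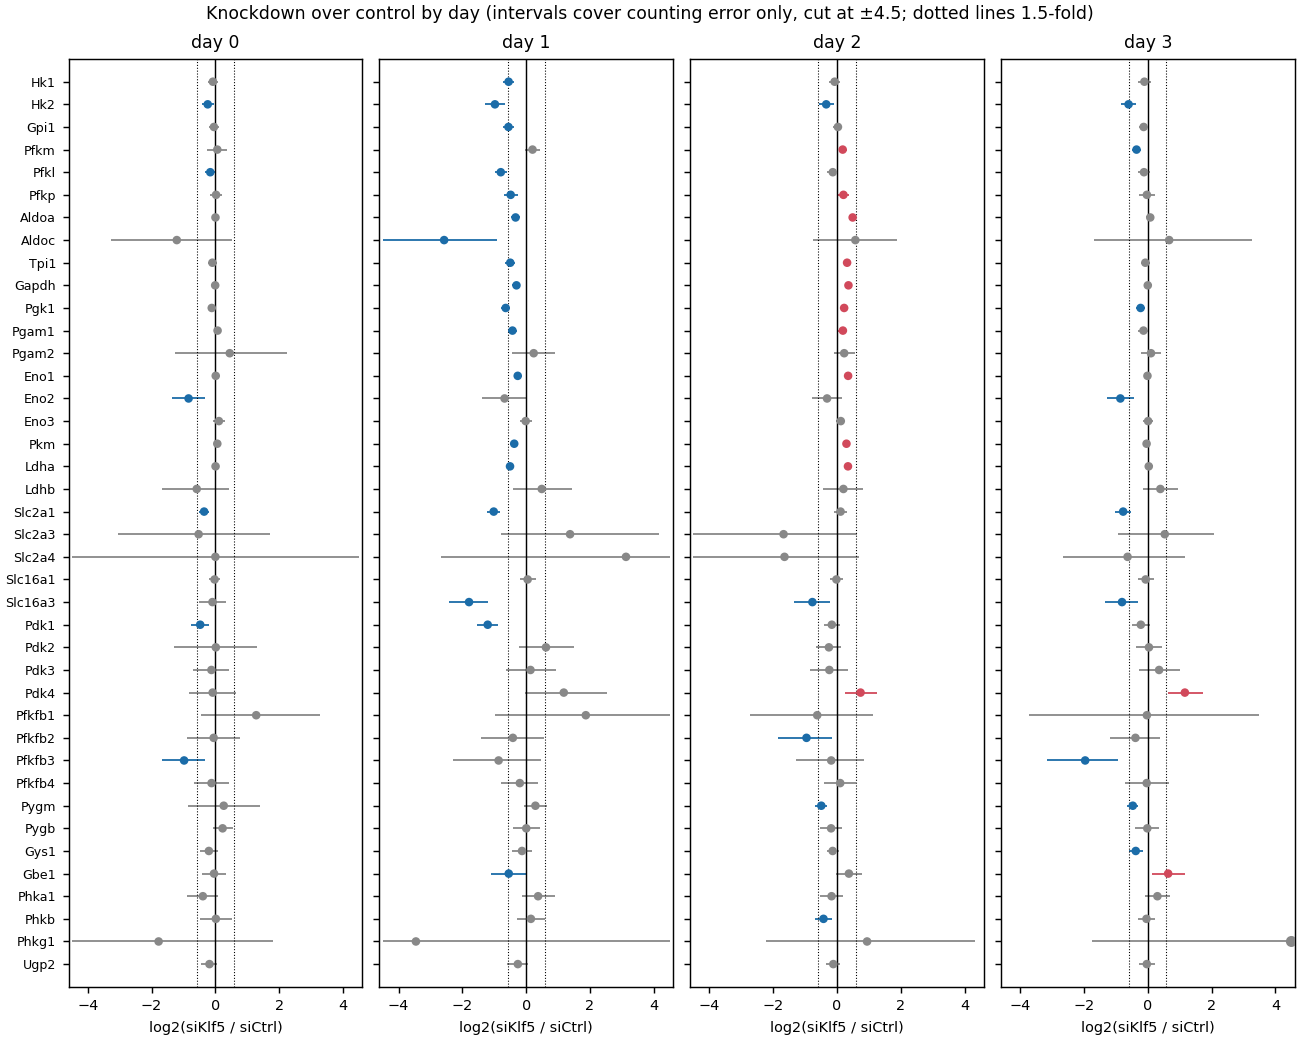
Log2 ratio of siKlf5 to siCtrl for the 40 expressed members on each day, with 95% intervals for counting error only, drawn in blue where the interval lies below 0, red where above and grey where it includes 0. On day 1, 18 members are blue and none red, beside 5.53% and 7.15% of all expressed transcripts, and on day 2, 5 are blue and 11 red, beside 10.3% and 7.20%.

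Of the 15 genes of the upper and lower steps of glycolysis, 4 were past 1.5-fold lower on day 1 (Pfkl, Aldoc, Pgk1, Eno2) and none higher, beside 11.0% and 16.4% of all expressed transcripts. The interval of Eno2 (-1.38 to 0.01) included 0. Leaving aside Aldoc and Phkg1, which had few reads, the 4 lowest ratios of all members were those of Slc16a3, Pdk1, Slc2a1 and Hk2. Among their relatives, Hk1 was lower as well, with a day 1 ratio of -0.55 (95% interval -0.72 to -0.38). The ratio was 0.05 for Slc16a1, 0.62 for Pdk2, 0.14 for Pdk3, 1.18 for Pdk4 and 1.38 for Slc2a3, each with an interval that included 0. Slc2a3 rested on 16 reads in siCtrl and 44 in siKlf5 cells, and Slc2a4 had 1 and 12. Slc2a1 had a day 1 ratio of -1.02 (95% interval -1.23 to -0.81), from 985 in siCtrl to 486 in siKlf5 cells. Hk2 (NM_013820, chr6:82675021-82724448, minus strand of mm9) read 299, 223, 151 and 232 in siCtrl cells and 253, 113, 119.9 and 153 in siKlf5 cells on days 0 to 3. Each siKlf5 value lay below the siCtrl value of its day, by -0.98 (95% interval -1.29 to -0.68) on day 1. For Slc16a3 (NM_001038654, chr11:120810381-120820314, plus strand of mm9), the lactate exporter of glycolytic muscle, the values were 128, 199, 80.1 and 117 in siCtrl cells and 120.1, 57.4, 46.9 and 66.9 in siKlf5 cells. It stood at almost the same level under both siRNAs on day 0, at -1.79 (95% interval -2.43 to -1.19) on day 1, and at -0.77 and -0.81 on days 2 and 3. Pdk1 (NM_172665, chr2:71711281-71741915, plus strand of mm9), a kinase that turns pyruvate dehydrogenase off, read 165, 229.8, 127 and 142 in siCtrl cells and 119, 99.6, 114 and 122 in siKlf5 cells. Its ratio was -0.48 (95% interval -0.75 to -0.20) on day 0 and -1.21 (95% interval -1.54 to -0.88) on day 1, and the intervals of days 2 and 3 included 0.

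Within the pathway, Pfkl was at -0.80 (95% interval -0.99 to -0.61) on day 1, Pgk1, which makes ATP from bisphosphoglycerate, at -0.64 (95% interval -0.78 to -0.51), Gpi1, the glucose-phosphate isomerase, at -0.56 (95% interval -0.73 to -0.39) and Ldha at -0.51 (95% interval -0.64 to -0.37). Tpi1, Pgam1, Pkm, Aldoa, Gapdh and Eno1 lay between -0.50 and -0.26, short of 1.5-fold but with intervals below 0. The muscle forms had ratios of 0.20 for Pfkm, 0.24 for Pgam2, -0.02 for Eno3 and 0.29 for Pygm, each with an interval that included 0. The lowest ratio with over 3 reads in each library was that of Aldoc, the brain aldolase, at -2.57 (95% interval -4.76 to -0.93), on 121 and 21 reads. Members past 1.5-fold higher on day 1 were the low-level genes Slc2a3, Slc2a4, Pdk2, Pdk4 and Pfkfb1, and all 5 intervals included 0.

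Whether day 1 stands apart from days 0, 2 and 3 was tested as an interaction in limma, with 2 residual degrees of freedom. With the filter on low values, no member passed after adjustment, beside 0.00% of all expressed transcripts. Unadjusted, 11 of 40 were under 0.05, beside 10.2%. Pfkl had -0.66 ± 0.13 (SE; adjusted p = 0.373), Pdk1 -0.92 ± 0.20 (SE; adjusted p = 0.415), Hk1 -0.47 ± 0.13 (SE; adjusted p = 0.456), Slc16a3 -1.23 ± 0.35 (SE; adjusted p = 0.456) and Hk2 -0.59 ± 0.20 (SE; adjusted p = 0.466). The day 1 libraries were the shallowest of their arms, at 7850507 and 8119439 reads, and thus differed little in depth from each other. Day 1 was picked out with earlier results of these data known.

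Over the 4 days together, with day as a factor, limma called 0 members lower and 0 higher, and 10 had an unadjusted p under 0.05, beside 9.60% of all expressed transcripts (adjusted, 0.0559% lower and 0.00699% higher). The lowest adjusted p among members belonged to Eno2, the neuronal enolase, which read 116, 84.3, 83.2 and 164 in siCtrl cells and 64.5, 52.7, 67.03 and 90.5 in siKlf5 cells. Each siKlf5 value was below its siCtrl partner, with a fitted difference of -0.67 ± 0.13 (SE; adjusted p = 0.185). Hk2 followed with -0.54 ± 0.13 (SE; adjusted p = 0.267), Slc16a3 with -0.86 ± 0.24 (SE; adjusted p = 0.327), Slc2a1 with -0.51 ± 0.17 (SE; adjusted p = 0.404) and Pdk1 with -0.51 ± 0.17 (SE; adjusted p = 0.414). Pfkfb3, the kinase that raises fructose-2,6-bisphosphate and so drives phosphofructokinase, read 37.6, 13.7, 8.95 and 24.96 in siCtrl cells and 19.04, 7.46, 7.89 and 6.33 in siKlf5 cells, a difference of -0.996 ± 0.37 (SE; adjusted p = 0.463). In all, 10 of the 40 members (25.0%) were below control on all 4 days (Hk1, Hk2, Pfkl, Eno2, Slc16a3, Pdk1, Pfkfb2, Pfkfb3, Gys1, Ugp2), beside 9.03% of all expressed transcripts, and Pgam2 was the sole member above on all 4, beside 9.05%.

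The other members that set fructose-2,6-bisphosphate stood at low levels. Pfkfb4 read 58.4, 79.3, 46.7 and 35.9 in siCtrl cells and 53.7, 69.04, 50.1 and 35.05 in siKlf5 cells and fell by day 3 (-0.66 ± 0.20 (SE; adjusted p = 0.0429)). Pfkfb2 read 36.3, 43.2, 42.6 and 45.3 in siCtrl cells and 34.96, 32.3, 21.9 and 34.7 in siKlf5 cells, with a day 2 ratio of -0.95 (95% interval -1.84 to -0.15). Pfkfb1, the liver and muscle form, had read counts of 27, 8, 64 and 14 in siCtrl cells and 60, 31, 24 and 12 in siKlf5 cells and cannot be ranked against control at this depth. On day 3 Pfkfb3 had 257 reads in siCtrl and 57 in siKlf5 cells, a ratio of -1.96 (95% interval -3.17 to -0.94).

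By day 3 the ratios spread in both directions. Slc2a1 was again lower, at -0.77 (95% interval -1.02 to -0.53), as were Hk2 at -0.60 (95% interval -0.83 to -0.37), Eno2 at -0.86 (95% interval -1.29 to -0.44) and Slc16a3 at -0.81 (95% interval -1.34 to -0.29). Pygm was at -0.49 (95% interval -0.67 to -0.31) on day 2 and -0.47 (95% interval -0.65 to -0.29) on day 3, and Gys1 at -0.38 (95% interval -0.59 to -0.16) and Pfkm at -0.35 (95% interval -0.48 to -0.23) on day 3, none of them past 1.5-fold. Beside these, the muscle markers on day 3 gave -0.73 for Myog, 0.07 for Myod1, 0.03 for Des, -0.06 for Myh3 and 0.28 for Chrna1, so 1 of 5 was past 1.5-fold lower, and their part in the Pygm, Gys1 and Pfkm values was not tested. The other expressed markers were the epithelial Cdh1 and Krt8, the macrophage Cd68 and the neuronal Syp. Cdh1 was at -2.62 (95% interval -4.20 to -1.41) on day 2 and -1.35 (95% interval -2.18 to -0.59) on day 3. On days 2 and 3, Krt8 had 12 and 0 reads in siCtrl and 1 and 2 in siKlf5 cells, Cd68 had 21 and 16 beside 3 and 22, and Syp had 20 and 1 beside 10 and 10, and each of these intervals included 0. Their part was not tested either. Higher in siKlf5 cells were Pdk4, the kinase induced by fasting, and Gbe1. Pdk4 read 30.9, 11.8, 36.8 and 38.00 in siCtrl cells and 29.1, 26.8, 61.5 and 85.2 in siKlf5 cells, with ratios of 0.74 (95% interval 0.24 to 1.24) on day 2 and 1.16 (95% interval 0.63 to 1.72) on day 3 and a difference over the 4 days of 0.75 ± 0.25 (SE; adjusted p = 0.421). Gbe1 read 126, 112, 69.1 and 56.3 in siCtrl cells and 122, 76.7, 89.5 and 87.8 in siKlf5 cells, with a day 3 ratio of 0.64 (95% interval 0.13 to 1.16).

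Depth differed most on day 2. The authors kept at most 3 reads per position, and the 9 most abundant members held a median of 3.03 to 4.93 reads per exon base over the 8 libraries, while depth ranged from 7850507 to 20301483 reads. Their median FPKM value was 2383, 3229, 1468 and 1799.8 in siCtrl cells and 2387, 2274, 1864 and 1839 in siKlf5 cells on days 0 to 3. It was highest in the shallowest library, siCtrl on day 1, and lowest in the deepest, siCtrl on day 2. In siKlf5 cells on day 1, at 8119439 reads, it was 2274, and that library differs from siCtrl on day 1 in siRNA as well. On average over the 8 libraries, 12 expressed members had 1 read per base or more, a split made after the values were seen. On day 2 those 12 had a median ratio of 0.26 and 9 intervals above 0, whereas the 28 members below that density had a median of -0.17 with 2 above. On day 1, where both arms had nearly the same depth, the medians were -0.40 for the 12 and -0.16 for the 28, with 10 and 8 intervals below 0. From day 0 to day 1, depth dropped from 12178834 to 7850507 reads in siCtrl and from 11136835 to 8119439 in siKlf5 cells. All 12 dense members were above day 0 in siCtrl cells (median 0.34) and 4 of 12 in siKlf5 cells (median -0.12), beside 15 and 11 of the other 28 (medians 0.21 and -0.18). How far the read limit moved these values was not tested. Day 0 and day 3 libraries of 1 arm were close in depth (12178834 and 12366618 reads in siCtrl, 11136835 and 10864102 in siKlf5).

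**Figure D4:**
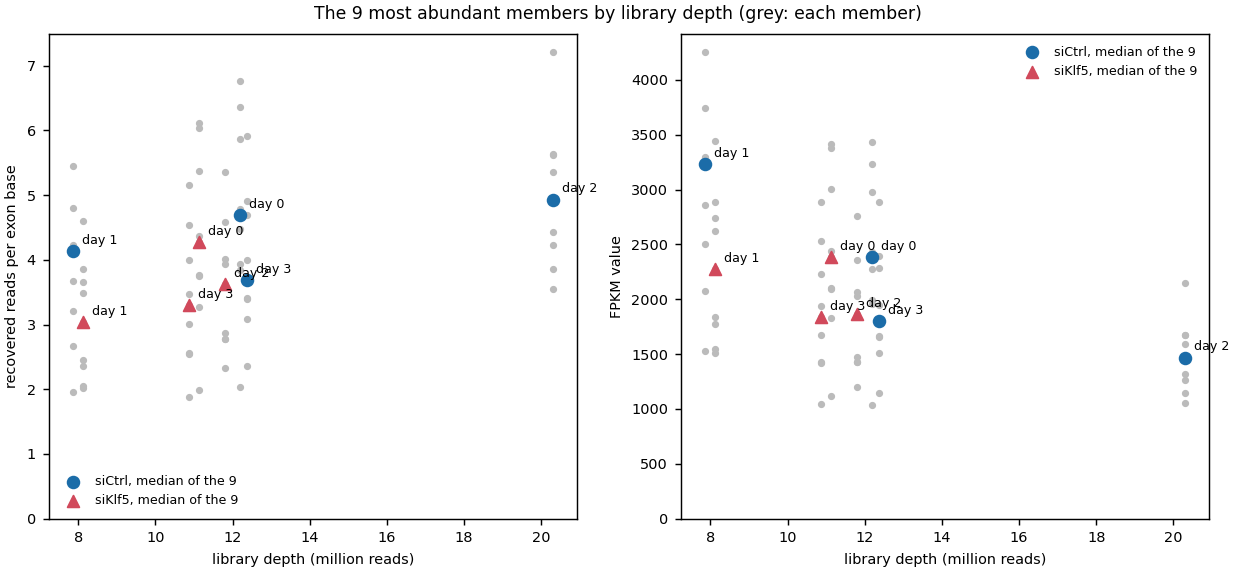
Recovered reads per exon base (left) and FPKM value (right) of the 9 most abundant members in each library (grey points) against library depth, with the median of the 9 in siCtrl (circles) and siKlf5 (triangles) labelled by day. The median reads per base stay between 3.03 and 4.93, whereas the median FPKM value is lowest, at 1468, in the deepest library.

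Genes outside glycolysis that respond to the hypoxia-inducible factors were set beside the members, as a list of 21 genes written from general knowledge. That list, too, was chosen with earlier results of these data known. On day 1, 11 of the 21 (52.4%) were past 1.5-fold lower and 1 (Adm) was higher, beside 11.0% and 16.4% of all expressed transcripts, and the median ratio was -0.62. On days 0, 2 and 3 the medians were -0.33, -0.04 and -0.47, with 4, 2 and 8 past 1.5-fold lower, beside 11.1%, 13.0% and 12.5% of all expressed transcripts. Bnip3, a mitophagy receptor, read 434, 499, 284 and 359 in siCtrl cells and 275, 190.5, 246 and 255 in siKlf5 cells, with a day 1 ratio of -1.39 (95% interval -1.80 to -0.99). Car9, a carbonic anhydrase, read 15.4, 46.1, 14.8 and 28.3 in siCtrl cells and 9.48, 12.7, 6.34 and 7.46 in siKlf5 cells, at -1.85 (95% interval -3.54 to -0.44) on day 1. Ero1l, an oxidase of protein folding, read 190.4, 132, 67.6 and 92.9 in siCtrl cells and 154, 58.8, 56.6 and 60.8 in siKlf5 cells, at -1.17 (95% interval -1.64 to -0.71). Adm, a vasodilator peptide, had no read in the siCtrl library of day 1, so no fold is given for it there. Over the 4 days limma called 0 of the 21 and 10 (47.6%) were under 0.05 unadjusted, beside 9.60% of all expressed transcripts. In the day 1 interaction limma called 0 of the 21 and 6 (28.6%) were under 0.05 unadjusted, beside 10.2%. The list's median was lowest on day 1, but single genes differed in this, and Car9 (-1.91) and Egln3 (-0.97), an oxygen-sensing hydroxylase, had their lowest ratio on day 3.

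**Figure D5:**
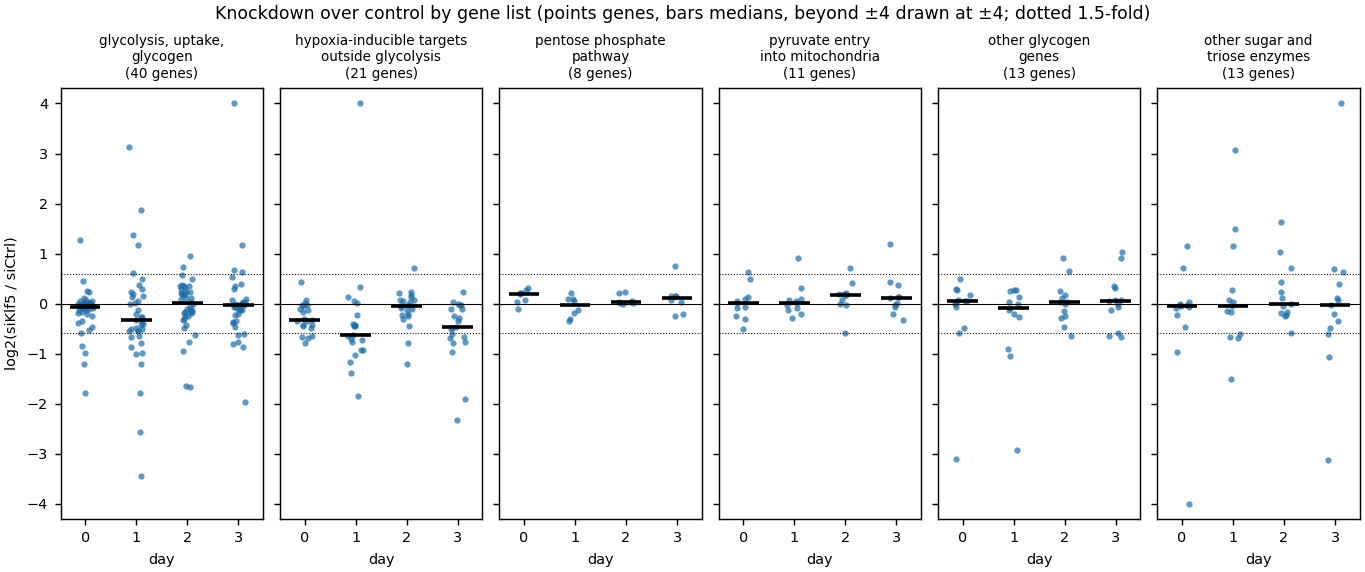
Log2 ratio of siKlf5 to siCtrl on each day for the expressed genes of 6 lists, 1 point a gene, with bars at the medians and dotted lines at 1.5-fold. The median of the 21 hypoxia-inducible genes is lowest on day 1, at -0.62, and that of the 40 members is -0.32 on the same day.

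Promoters of 2 members that were lower on day 1 show ACGTG, the core that hypoxia-inducible factors bind, again 250 bases before to 50 after the RefSeq start on GRCm38.p6: Slc16a3 at chr11:120948817-120949116 on the plus strand and Hk2 at chr6:82774405-82774704 on the minus strand. Capitals mark ACGTG or its reverse complement CACGT.
Slc16a3: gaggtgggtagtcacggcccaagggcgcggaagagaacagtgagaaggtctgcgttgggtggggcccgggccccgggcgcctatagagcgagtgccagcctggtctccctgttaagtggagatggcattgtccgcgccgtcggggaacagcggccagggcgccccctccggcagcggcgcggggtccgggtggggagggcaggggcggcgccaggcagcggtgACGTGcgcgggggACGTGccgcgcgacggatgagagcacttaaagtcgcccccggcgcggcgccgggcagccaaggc
Hk2: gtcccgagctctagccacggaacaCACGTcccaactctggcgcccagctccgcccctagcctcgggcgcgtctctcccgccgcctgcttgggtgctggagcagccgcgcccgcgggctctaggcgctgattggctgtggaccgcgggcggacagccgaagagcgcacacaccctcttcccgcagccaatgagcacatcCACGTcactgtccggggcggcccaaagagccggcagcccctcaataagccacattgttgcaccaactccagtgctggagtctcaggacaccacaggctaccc
Each holds 2 copies. On either strand the core was in the promoters of 21 of 39 members (53.8%), beside 21.8% of all genes with an entry. Counted by promoter, the shares were 42.4% and 19.6%. The core was in 6 of the 10 members past 1.5-fold lower on day 1 (Aldoc, Hk2, Pfkfb3, Pgk1, Slc16a3, Slc2a1). It was likewise in 6 of the 10 members lower on day 3 against day 0, and in 3 of the 8 higher with an entry. The letters CACCC, in which Klf factors find their sites, or GGGTG were in 32 of 39 members (82.1%) and in 59.8% of all genes. By promoter the shares were 71.2% and 57.5%, so they are found in most windows of this length. CACCC or GGGTG was in 9 of the 10 members past 1.5-fold lower on day 1.

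Genes of neighbouring pathways were read against the same 17.6% of all expressed transcripts lower and 12.8% higher on day 3. Of 8 pentose phosphate genes, all expressed, 5 fell by day 3 (G6pdx, Pgd, Rpe, Tkt, Taldo1), and none rose. The 5 became 3 (G6pdx, Pgd, Tkt) without either library of day 0 or without siCtrl on day 3, and 4 without any other library. G6pdx, the enzyme that opens the pathway and yields NADPH, read 444, 259.7, 138 and 114 in siCtrl cells and 514, 229, 162 and 117 in siKlf5 cells, a day 3 change of -2.05 ± 0.13 (SE; adjusted p = 3.9e-05). Pgd, the next dehydrogenase, read 899, 485, 363 and 370.1 in siCtrl cells and 1038, 392, 361 and 392 in siKlf5 cells, a day 3 change of -1.34 ± 0.13 (SE; adjusted p = 0.000289), and Tkt, the transketolase, had -1.77 ± 0.18 (SE; adjusted p = 0.000335). No pentose phosphate gene was past 1.5-fold between the siRNAs on days 0, 1 and 2, and Rpe alone was on day 3, higher in siKlf5 cells. Of 13 expressed other glycogen genes, 5 rose by day 3 (Gyg, Ppp1r3a, Ppp1r3c, Phka2, Gaa) and 2 fell (Pgm1, Pgm2). Without any 1 library of days 0, 2 or 3 these became 1 or 2 higher and 1 lower. Gyg, the primer of glycogen, had a day 3 change of 0.80 ± 0.17 (SE; adjusted p = 0.0102), a call kept in 3 of the 8 fits that left out a library. Between the siRNAs, 3 of the 13 were past 1.5-fold lower on days 1 and 3 each, and 2 were higher on day 3, beside the shares of all expressed transcripts given above (11.0%, 12.5% and 10.7%).

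Among 11 genes of pyruvate entry into mitochondria, 2 rose by day 3 (Pdp1, Pcx) and none fell, a share (18.2%) near the 12.8% of all expressed transcripts. The 2 became 1 without siKlf5 on day 0 and 0 without siKlf5 on day 3. Pcx, the pyruvate carboxylase that refills the citrate cycle, read 34.7, 29.1, 50.7 and 64.6 in siCtrl cells and 54.1, 54.5, 83.1 and 147 in siKlf5 cells. Each siKlf5 value was past 1.5-fold above its siCtrl partner, with a difference over the 4 days of 0.86 ± 0.15 (SE; adjusted p = 0.155), which missed the threshold. Pdp1, the phosphatase that switches pyruvate dehydrogenase on, had a day 3 change of 1.06 ± 0.17 (SE; adjusted p = 0.00286). Of 13 expressed other sugar and triose genes, 4 fell by day 3 (Adpgk, Gpd2, Galk1, Pck2) and 1 rose (Txnip), beside 17.6% and 12.8% of all expressed transcripts. The 4 became 2 without either library of day 0 or of day 3, and the 1 became 0 without either library of day 0 or without siCtrl on day 3 and 2 without either library of day 1. Between the siRNAs, 4 of the 13 were past 1.5-fold lower and 3 higher on day 1, beside 11.0% and 16.4% of all expressed transcripts. On day 3, 3 were lower and 3 higher, beside 12.5% and 10.7%. Intervals lay below 0 for 1 gene and above 0 for 2 on day 1, and for 2 and 0 on day 3. Pck2, the mitochondrial carboxykinase, read 312, 76.2, 57.02 and 67.4 in siCtrl cells and 265, 73.5, 93.5 and 71.2 in siKlf5 cells, a day 3 change of -2.05 ± 0.23 (SE; adjusted p = 0.000479), and Txnip, a brake on glucose uptake, had 1.05 ± 0.15 (SE; adjusted p = 0.00169).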

How the data were processed

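RNA of 8 libraries (siCtrl and siKlf5, days 0 to 3, 1 each) was used, and the ChIP-seq samples were left out. Poly(A) reads from both fragment ends had been mapped by the authors on mm9 (STAR). The paper gives a HOMER version for its ChIP-seq peaks, and versions for the RNA steps are not given in the sources used here. HOMER summed the reads across RefSeq exons, either strand, with a limit of 3 reads per position and 1 transcript a gene. Antisense genes can therefore share reads. The deposited FPKM values were scaled by the authors to a matrix total of 10000000 and exceed usual FPKM. The log2 columns that the authors deposited were not used.

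Reads were recovered as whole multiples of 1 step per library (all values checked lay within 0.1 of a whole number), giving depths of 7850507 to 20301483. Intervals and floors of 3 reads cover counting error only, and the floors take each read as independent. Tests used limma 3.58.1 in R 4.3.3 with a mean-variance trend on log2(FPKM + 0.1) for 14312 transcripts with a mean of at least 1: siRNA and day as factors (3 residual degrees of freedom), and day 1 against the other days by siRNA (2). These p-values are two-sided and Benjamini-Hochberg adjusted. They are set against how far the siRNA difference varies from day to day, or, equally, how far the change by day differs between the siRNAs. Spread between replicate cultures does not enter them. Fold changes on this scale understate those of low genes. All members, Klf5 and, of each further list, the 3 genes with the largest day 1 ratio and the 3 with the largest day 3 change could be named; others named were chosen after their values were seen. Members and lists were chosen with earlier results of these data known. A gene of the further lists is not reported here. Alternatives were another pseudocount, filters, scalings, a 2-fold cutoff, a read density limit, no trend and leaving out each library or day. The calculations were tested on simulated data and used Python 3.11.15, pandas 2.3.3 and scipy 1.17.1.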

Additional observations from a re-analysis of the deposited data

Results flagged for a closer look

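Ratios of siKlf5 to siCtrl past 1.5-fold in opposite directions on different days were found for 4 members, among days on which both libraries had over 3 reads. The share of all expressed transcripts that do so was not counted, so the number says nothing particular to the members. On a single day, between 7.69% and 16.4% of all expressed transcripts were past 1.5-fold in 1 direction. Their lowest and highest log2 ratios were 3.24 apart for Aldoc (-2.57 on day 1, 0.67 on day 3), 3.05 for Slc2a3 (-1.67 on day 2, 1.38 on day 1), 2.49 for Pfkfb1 (-0.62 on day 2, 1.87 on day 1) and 2.72 for Phkg1 (-1.78 on day 0, 0.94 on day 2). All but the day 1 interval of Aldoc included 0, and the differences between the days named were not tested. The limma interaction of day 1 against the other days did not pass after adjustment for Aldoc (-2.58, adjusted p = 0.481), Slc2a3 (1.93, adjusted p = 0.646) or Pfkfb1 (1.66, adjusted p = 0.633).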

How the results depend on the processing

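No called value changed direction under an alternative. With a mean of at least 5, 3 members were past 1.5-fold higher on day 1, 3 lower and 1 higher on day 2. Of the 12399 transcripts kept, 1671 were higher on day 1, and 1138 were lower and 551 higher on day 2. Without a filter, 2 were higher on day 0, beside 2374 of 24016 transcripts. The limma calls against day 0 then fell to 1 lower and 2 higher for day 1, 1 lower for day 2 and 2 lower for day 3. For the day 1 difference they rose from 0 to 1 lower. At 2-fold, the lower counts were 2, 5, 2 and 1 on days 0 to 3, and the higher counts 0 on day 2 and 2 on day 3. Of all 14312 expressed transcripts, 968, 924, 1039 and 1069 were lower at 2-fold on days 0 to 3. Higher were 627 on day 2 and 893 on day 3. Median-ratio and upper-quartile scaling shifted day 1 against day 0 by 0.11 and 0.14 and day 3 by 0.11 for both on the log2 scale, and left 0 lower on day 1, with 6 lower on day 3 under median-ratio scaling. With only transcripts under 1 read per base, 2 were higher on day 1, 3 lower and 3 higher on day 2, and 4 lower and 4 higher on day 3. Of all 12166 transcripts under this limit, 2303 were higher on day 1, and 1814 were lower and 1075 higher on day 2. On day 3, 1754 were lower and 1513 higher. Fewer members were fitted under this limit, and 2 results of fitted members were weaker. Without the trend, 0 were lower on day 1, 1 on day 2 and 4 on day 3. Leaving out 1 library gave 0 to 1 lower and 2 to 6 higher members on day 1, 0 to 12 and 5 to 7 on day 2, and 1 to 12 and 6 to 9 on day 3. Of the 19 day 3 calls, Pkm, Eno1, Pygb and Pfkfb4 were lost under median-ratio scaling. Without the filter, Pkm, Eno1, Pgam1, Slc2a1, Hk1, Pfkl, Pfkp, Pygb, Ldhb and Slc2a4 were lost. Without the trend, Pkm, Eno1, Slc2a1, Hk1, Pfkl and Pygb were lost. The other causes were not tested. Slc2a3, Slc2a4, Pfkfb1 and Phkg1, with at most 64 reads in a library, could not be ranked at this depth.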
